A study of Mus musculus with 6 samples.

Results

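The genes described here are 9 genes of blood coagulation and plasminogen activation, *F3*, *F7*, *F10*, *F5*, *F13a1*, *Plat*, *Plau*, *Plaur*, and *Serpine2*. They were taken by gene symbol from the 46078 gene rows of the count tables, and each symbol matched 1 row. RNA-Seq compared chronic stroke infarcts with the matching region of the opposite hemisphere, to ask which transcripts differ in the infarct at a late stage of recovery. Infarcts and contralateral cortices both came from wild type C57BL/6J mice aged 3 months, with 3 samples from each region. According to the study's methods the mice were male, stroke was made by occlusion of the distal middle cerebral artery combined with hypoxia, and mice were perfused with saline before dissection. Tissue was collected 7 weeks after stroke by manual dissection guided by the look of the lesion, and the amount of surrounding tissue in each sample is not given. Those methods speak of tissue from vehicle-treated and HPβCD-treated mice in general, whereas the sample records name no treatment. Samples are numbered 1, 2 and 3 within each region, but the records leave unstated which infarct shares a mouse with which contralateral cortex, and whether samples of a region are from separate mice. The *p* values therefore measure the spread between these samples.

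Reads counted on genes numbered 12146959, 12507336 and 13427057 for infarcts 1, 2 and 3, and 19933962, 16610299 and 11943570 for contralateral cortices 1, 2 and 3. The labeled tissue was checked against 8 neuronal markers, whose summed expression was 668, 877 and 1977 CPM in infarcts 1, 2 and 3, against 9703, 10179.8 and 10659 on the contralateral side. All 8 were downregulated in infarcts, and none was at 0 in any library. In bulk tissue, fewer cells of a type and less RNA per cell cannot be told apart, and this holds for every difference below.

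Coagulation starts when tissue factor, the product of *F3*, meets factor VII in plasma, and it proceeds through factor X and its cofactor factor V to thrombin, which turns fibrinogen into fibrin. Factor XIII then cross-links the fibrin. Plasmin dissolves it and is made from plasminogen by the tissue-type and urokinase-type activators (*Plat* and *Plau*), the latter held at the cell surface by its receptor (*Plaur*), while serpins such as protease nexin 1 (*Serpine2*) inhibit the activators and thrombin.

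All 9 genes had higher expression in every infarct than in every contralateral cortex, and all 9 were upregulated. The smallest change was 2.25-fold, for *Serpine2*, and *Plaur* rose 42.8-fold. The largest changes were fitted for *F7* and *F10*, which were close to absent from contralateral cortices, so that their size is poorly fixed. For comparison, 3999 of the 15554 genes tested (25.7%) were upregulated in infarcts, 3256 (20.9%) were downregulated, and for 5853 (37.6%) every infarct lay above every contralateral cortex. The median log2 fold change was 2.96 over the 9 genes, *F7*, *F10*, and *Plaur* among them, and 0.03 over all genes tested. The 9 genes were chosen with earlier results of these data known, so these figures are no test of the group. The filter on low counts was passed by 6 of the 9 in contralateral cortices alone, whereas *F7*, *F10*, and *Plaur* entered the test only through infarcts and so had to differ. The median of all genes moved to 0.23 when libraries were scaled by their totals, so fold changes depend on the TMM scaling to that extent.

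**Figure D1:**
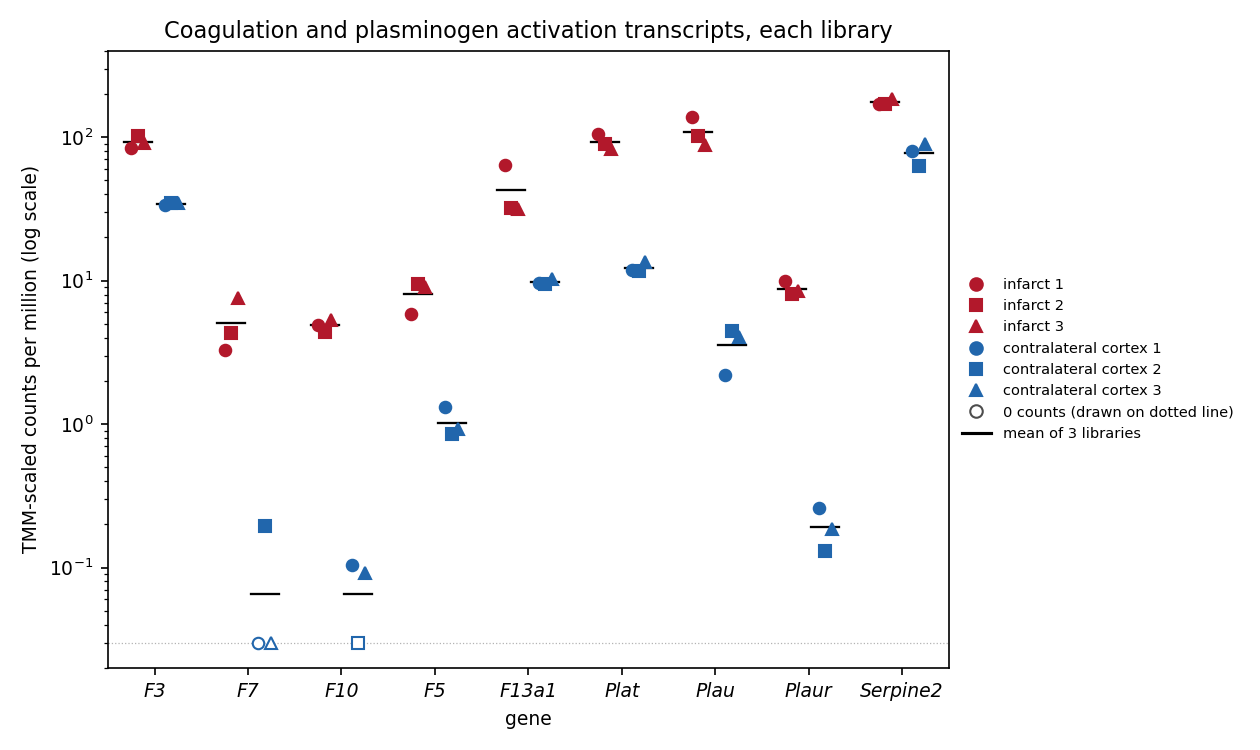
TMM-scaled CPM (log axis) of the 9 genes in each infarct (red) and contralateral cortex (blue), with a line at the mean of the 3 libraries of a region and open symbols for libraries with 0 counts. Every red symbol of a gene lies above every blue one, and the gap is narrowest for *Serpine2* and *F3*.

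*F3* (ENSMUSG00000028128, chromosome 3, 121723537 to 121735048) encodes tissue factor, the membrane receptor that starts coagulation and is made by astrocytes in healthy brain. Its expression was 83.5, 102 and 90.8 CPM in infarcts 1, 2 and 3, against 33.5, 34.5 and 34.7 on the contralateral side. The contralateral libraries lay close together, and the lowest infarct was above them all. The means were 91.9 ± 9.09 CPM (SD, n = 3) and 34.2 ± 0.655 CPM (SD, n = 3). The log2 fold change was 1.43 (SE 0.14; edgeR quasi-likelihood, BH-adjusted *p* = 1.62e-05), where SE is the standard error of the fit and BH stands for Benjamini-Hochberg.

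Factor VII, the plasma protease that tissue factor binds, is encoded by *F7* (ENSMUSG00000031443, chromosome 8, 13026034 to 13035809). *F7* had 41, 59 and 110 counts in infarcts 1, 2 and 3, against 0, 3 and 0 on the contralateral side. Infarct 3 held the most, and contralateral cortex 2 held all of the contralateral counts. Summed over each region, *F7* was 77.7-fold higher in infarcts, with an exact 95% counting interval of 26.2 to 380.0. The fitted log2 fold change was 6.08 (SE 1.12; edgeR, BH-adjusted *p* = 7.89e-05), and 5.37 without contralateral cortex 1. Without contralateral cortex 2 no contralateral count remained, so the value of 9.16 fitted then does not measure a size. The size of the change thus rests on those few counts. Counting intervals and bounds cover counting error only, and duplicate reads of 1 molecule could not be recognized.

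*F10* (ENSMUSG00000031444, chromosome 8, 13037308 to 13056676) encodes factor X, the protease on which the initiating and amplifying arms of coagulation converge. Its counts were 62, 60 and 78 in infarcts against 2, 0 and 1 contralaterally. The infarcts were close to each other, unlike those of *F7*. Over each region *F10* was 74.0-fold higher in infarcts (exact 95% counting interval 25.0 to 362). The fitted log2 fold change was 6.04 (SE 0.80; edgeR, BH-adjusted *p* = 8.91e-06) and ranged from 5.49 without contralateral cortex 2 to 6.66 without contralateral cortex 1.

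Factor V, the cofactor of activated factor X, is encoded by *F5* (ENSMUSG00000026579, chromosome 1, 164151838 to 164220277). It was expressed at 5.89, 9.40 and 9.08 CPM in infarcts against 1.31, 0.846 and 0.923 contralaterally. Infarct 1 was the lowest of the infarcts and still lay above every contralateral cortex. The log2 fold change was 2.96 (SE 0.32; edgeR, BH-adjusted *p* = 3.06e-05). Genes of the opposite strand share 3.53% of the exon bases of *F5*, and no other of the 9 genes shares exon bases with another gene.

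*F7* and *F10* are neighbors on the same strand, 1498 bases apart, and *Proz* follows 4237 bases beyond *F10*. *Proz* encodes protein Z, a cofactor for the inhibition of activated factor X. It moved the other way, with 2.39, 1.91 and 2.46 CPM in infarcts against 6.42, 7.68 and 6.09 contralaterally. No infarct reached the lowest contralateral cortex, and *Proz* fell by 1.58 on the log2 scale (SE 0.25; edgeR, BH-adjusted *p* = 4.16e-04). The 3 genes share no exon bases. *F5* also has a near neighbor on its own strand that differed between regions, since *Selp*, the gene of the adhesion molecule P-selectin, ends 1811 bases away and had 57, 97 and 82 counts in infarcts against 0, 1 and 0 contralaterally. Over each region that is a ratio of 262 (exact 95% counting interval 46.6 to 10395).

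**Figure D2:**
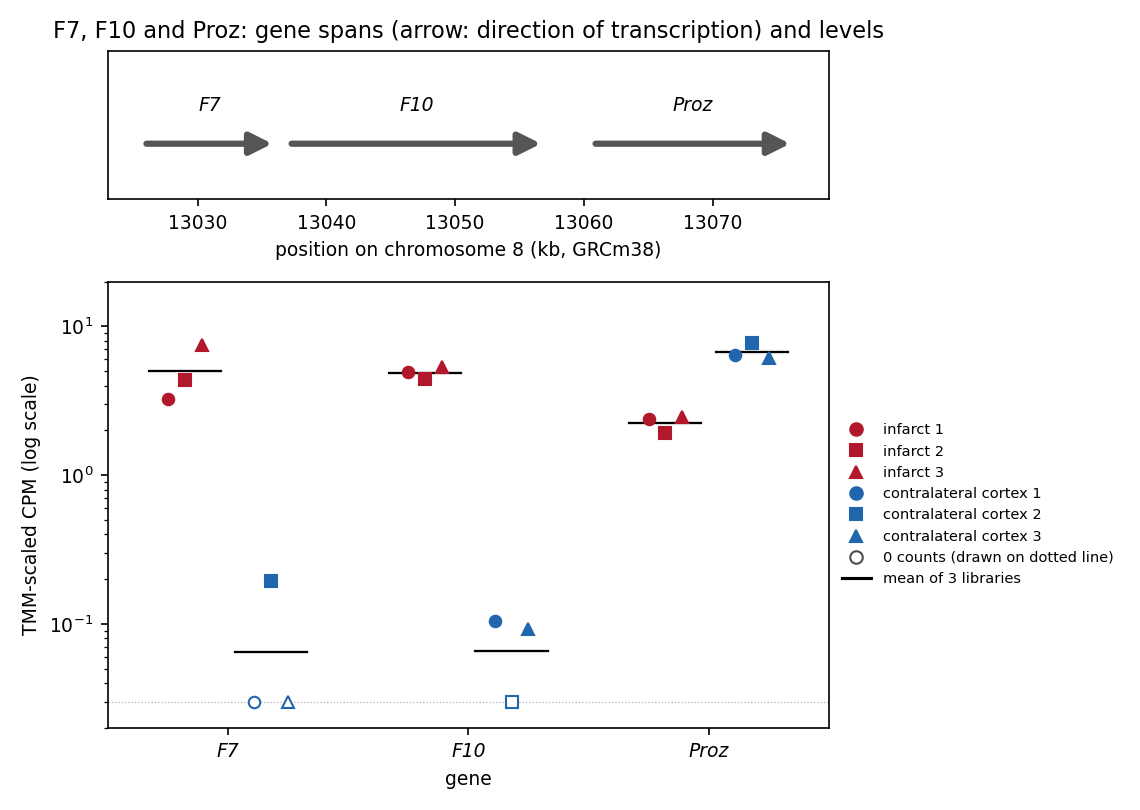
Top, spans of *F7*, *F10*, and *Proz* on chromosome 8 (kb, GRCm38), with arrows in the direction of transcription. Bottom, TMM-scaled CPM (log axis) of each gene in each library, with lines at the means of 3 libraries and open symbols at 0 counts: *F7* and *F10* are higher in infarcts (red) and *Proz* is higher in contralateral cortices (blue).

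*F13a1* (ENSMUSG00000039109, chromosome 13, 36867178 to 37050244) encodes the catalytic A subunit of factor XIII, a transglutaminase that is also made by macrophages and platelets. Its expression was 64.4, 32.1 and 31.4 CPM in infarcts against 9.66, 9.51 and 10.3 contralaterally. Infarct 1 stood at about the level of both other infarcts combined, and no infarct overlapped the contralateral cortices. The log2 fold change was 2.12 (SE 0.28; edgeR, BH-adjusted *p* = 1.67e-04), or 1.71 without infarct 1. *Tgm2*, the gene of tissue transglutaminase, which can also cross-link fibrin, rose from 17.9 ± 1.24 to 239 ± 46.1 CPM (SD, n = 3), a log2 fold change of 3.73. *Tgm2* shares 21.8% of its exon bases with genes of the opposite strand. *F13b*, which encodes the plasma carrier subunit of factor XIII, had 0 counts in every library.

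The perivascular and border macrophage markers summed to 503, 357 and 284 CPM in infarcts 1, 2 and 3, against 38.9, 32.5 and 35.2 on the contralateral side. Of these 7 genes 6 were upregulated, *Stab1* was the most abundant and none was at 0 in all libraries. The monocyte and macrophage markers, led in infarcts by *Lyz2*, summed to 9022, 7823 and 5504 CPM in infarcts against 63.6, 55.3 and 71.6 contralaterally, and all 8 were upregulated. Platelet and megakaryocyte markers summed to 39.5, 33.3 and 30.0 CPM in infarcts against 13.9, 13.1 and 13.1 contralaterally, mostly from *Itgb3* in infarcts, with 1 of the 4 tested genes upregulated and 1 downregulated. Among platelet receptor genes, *Itga2b* had 1.04, 1.25 and 1.16 CPM in infarcts against 0.784, 0.326 and 0.369 contralaterally, and *Gp1ba* 1.35, 1.91 and 1.71 against 1.25, 0.521 and 1.02 CPM. Both lay higher in every infarct without being called, and so did *Treml1*, which was not tested, with 0.319, 0.441 and 0.546 against 0.104, 0.260 and 0 CPM. *Gp1bb* was downregulated, at 1.19, 1.03 and 2.05 against 6.89, 4.88 and 5.91 CPM. *Gp9* had 1, 0 and 1 counts against 3, 0 and 1 and *Gp6* 1 count in infarct 1 alone, and the platelet chemokine gene *Ppbp* had 10, 8 and 17 counts in infarcts and 0 in every contralateral cortex. The part of these cells in the results was not tested.

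*Plat* (ENSMUSG00000031538, chromosome 8, 22757727 to 22782844) encodes tissue-type plasminogen activator, which endothelium, neurons and microglia can make. It was expressed at 105, 89.9 and 82.4 CPM in infarcts against 11.8, 11.6 and 13.6 contralaterally. The spread within a region was small beside the gap between regions, which is a log2 fold change of 2.91 (SE 0.16; edgeR, BH-adjusted *p* = 5.57e-07). *Plau* (ENSMUSG00000021822, chromosome 14, 20836660 to 20843385), the gene of urokinase, had 1723, 1380 and 1301 counts in infarcts against 42, 68 and 44 contralaterally. Infarct 1 was the highest and contralateral cortex 1 the lowest library, in CPM as well. Its means were 109 ± 25.1 and 3.56 ± 1.20 CPM (SD, n = 3). *Plau* was upregulated 31.0-fold, with a log2 fold change of 4.96 (SE 0.27; edgeR, BH-adjusted *p* = 1.06e-06).

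Urokinase is bound at the cell surface by the receptor that *Plaur* encodes (ENSMUSG00000046223, chromosome 7, 24462484 to 24475968). *Plaur* had 124, 109 and 125 counts in infarcts against 5, 2 and 2 contralaterally. The infarcts hardly differed from each other, and the contralateral libraries were near 0. The means were 8.80 ± 0.966 and 0.192 ± 0.0658 CPM (SD, n = 3), and the log2 fold change was 5.42 (SE 0.43; edgeR, BH-adjusted *p* = 1.18e-06). A larger log2 fold change was fitted for 3.16% of all genes tested, compared with 3.80% for *Plau* and 10.4% for *Plat*. *Plaur* passed the filter on low counts only through infarcts and so had to differ, whereas *Plau* and *Plat* passed it in both regions.

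*Serpine2* (ENSMUSG00000026249, chromosome 1, 79794197 to 79861180) encodes protease nexin 1, an inhibitor of thrombin, urokinase and tissue-type plasminogen activator that glia and neurons secrete. Its expression was 170.1, 169 and 185 CPM in infarcts against 80.2, 63.0 and 89.3 contralaterally. The regions did not overlap, although this was the smallest difference among the 9 genes. The log2 fold change was 1.17 (SE 0.16; edgeR, BH-adjusted *p* = 1.35e-04), and 23.9% of all genes tested had a larger one. With glmTreat, which tests whether a change exceeds 2-fold, *Serpine2* was no longer called.

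Those genes of other inhibitors of plasminogen activation and of plasmin that could be tested changed more, and in both directions. *Serpini1*, which encodes neuroserpin, the inhibitor of tissue-type activator made by neurons, had 45.5, 57.9 and 81.7 CPM in infarcts against 507, 565 and 553 contralaterally. Every infarct lay far below every contralateral cortex, and *Serpini1* fell by 3.13 on the log2 scale (SE 0.21; edgeR, BH-adjusted *p* = 2.24e-06). The genes of plasmin inhibitors were upregulated, *A2m* (α2-macroglobulin) from 2.02 ± 0.344 to 302 ± 114 CPM (SD, n = 3) with a log2 fold change of 7.24, and *Serpinf2* (α2-antiplasmin) from 1, 3 and 3 counts to 60, 109 and 133 counts with a log2 fold change of 5.46. *Serpinf2* entered the test only through infarcts and so had to differ. *Cpb2*, with 4, 5 and 1 counts in infarcts against 5, 2 and 3 contralaterally, was too low to be tested. The same held for *Serpinb2*, with 2, 4 and 3 counts against 1, 0 and 0.

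Levels of different genes were compared as CPM per kb of exon. In infarcts the order was *Plau* (46.1 ± 10.6), *F3* (36.4 ± 3.60), *Serpine2* (21.1 ± 1.06), *Plat* (14.8 ± 1.83), *F13a1* (6.33 ± 2.80), *Plaur* (3.36 ± 0.369), *F7* (2.71 ± 1.19), *F10* (1.79 ± 0.169), and *F5* (1.09 ± 0.261; mean ± SD, n = 3). Libraries of *Plau* and *F3* overlapped, as did those of *Plaur* and *F7* and those of *F7* and *F10*. In contralateral cortices *F3* (13.5 ± 0.259) and *Serpine2* (9.35 ± 1.62) came first, followed by *Plat* (1.97 ± 0.174), *Plau* (1.50 ± 0.506), and *F13a1* (1.46 ± 0.0654). There *Plau* overlapped both *Plat* and *F13a1*, and the means of *F5*, *Plaur*, *F7*, and *F10* were 0.138, 0.0734, 0.0350 and 0.0240. The exons of all transcripts of *Serpine2* add up to 8.29 kb, whereas its principal transcript has 2.21 kb. Per kb of principal transcript, a length chosen after the data were seen, the order changed. *Serpine2* then came first in both regions, at 79.0 in infarcts and 35.1 in contralateral cortices. In infarcts *F3* (49.1) followed ahead of *Plau* (46.6), with overlap, and *Plau* overlapped *Plat* (36.6). In contralateral cortices *F13a1* (2.49) lay above *Plau* (1.52) without overlap, and *Plat* (4.88) above both.

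Ratios within a library do not depend on scaling between libraries. The ratio of *Plau* to *Plat* per kb was 3.45, 2.97 and 2.84 in infarcts 1, 2 and 3, against 0.490, 1.01 and 0.789 on the contralateral side. Urokinase transcripts thus exceeded those of tissue-type activator per kb in every infarct, and the ratio was 4.21-fold higher in infarcts (exact two-sided permutation *p* = 0.1, the smallest that 3 against 3 libraries can give). Per kb of principal transcript the ratio averaged 1.26 and 0.312. The ratio of *Serpine2* to the sum of *Plat* and *Plau* was 0.275, 0.357 and 0.440 in infarcts against 3.44, 2.04 and 2.77 contralaterally. It fell by 2.94 on the log2 scale (exact two-sided permutation *p* = 0.1), or by 2.51 per kb of principal transcript, for which it averaged 0.975 in infarcts and 5.52 in contralateral cortices. The ratio of *F3* to *Tfpi*, whose product inhibits the complex of tissue factor and factor VII, was 3.58, 4.52 and 4.87 in infarcts against 12.8, 13.5 and 12.1 contralaterally. *F3* thus rose less than *Tfpi*, and the ratio fell by 1.58 on the log2 scale (exact two-sided permutation *p* = 0.1). Per kb of principal transcript the ratio of *F3* to *Tfpi* averaged 2.17 in infarcts and 6.42 in contralateral cortices.

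The 9 genes were set beside the other genes of these pathways. A list of 54 genes arranged by role holds the 9, and 53 of its symbols were matched. The list was chosen with earlier results of these data known. Of the 38 genes tested, 33 were upregulated and 3, *Proz*, *F2rl2*, and *Serpini1*, were downregulated, whereas *Eno1* and *Vkorc1l1* stayed within the fold change threshold. Of all genes tested, 25.7% were upregulated and 20.9% downregulated, and these shares also stand beside the counts by role and by cell type. The median log2 fold change was 2.93, and it was the same with *Kng1*, which had no contralateral count, at its lower bound. Outside the 9 genes, 29 were tested, of which 24 rose and 3 fell beyond the thresholds, and their median was 2.67. Of the 38, 12 passed the filter only through infarcts and *F2rl2* only through contralateral cortices, and these had to differ.

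**Figure D3:**
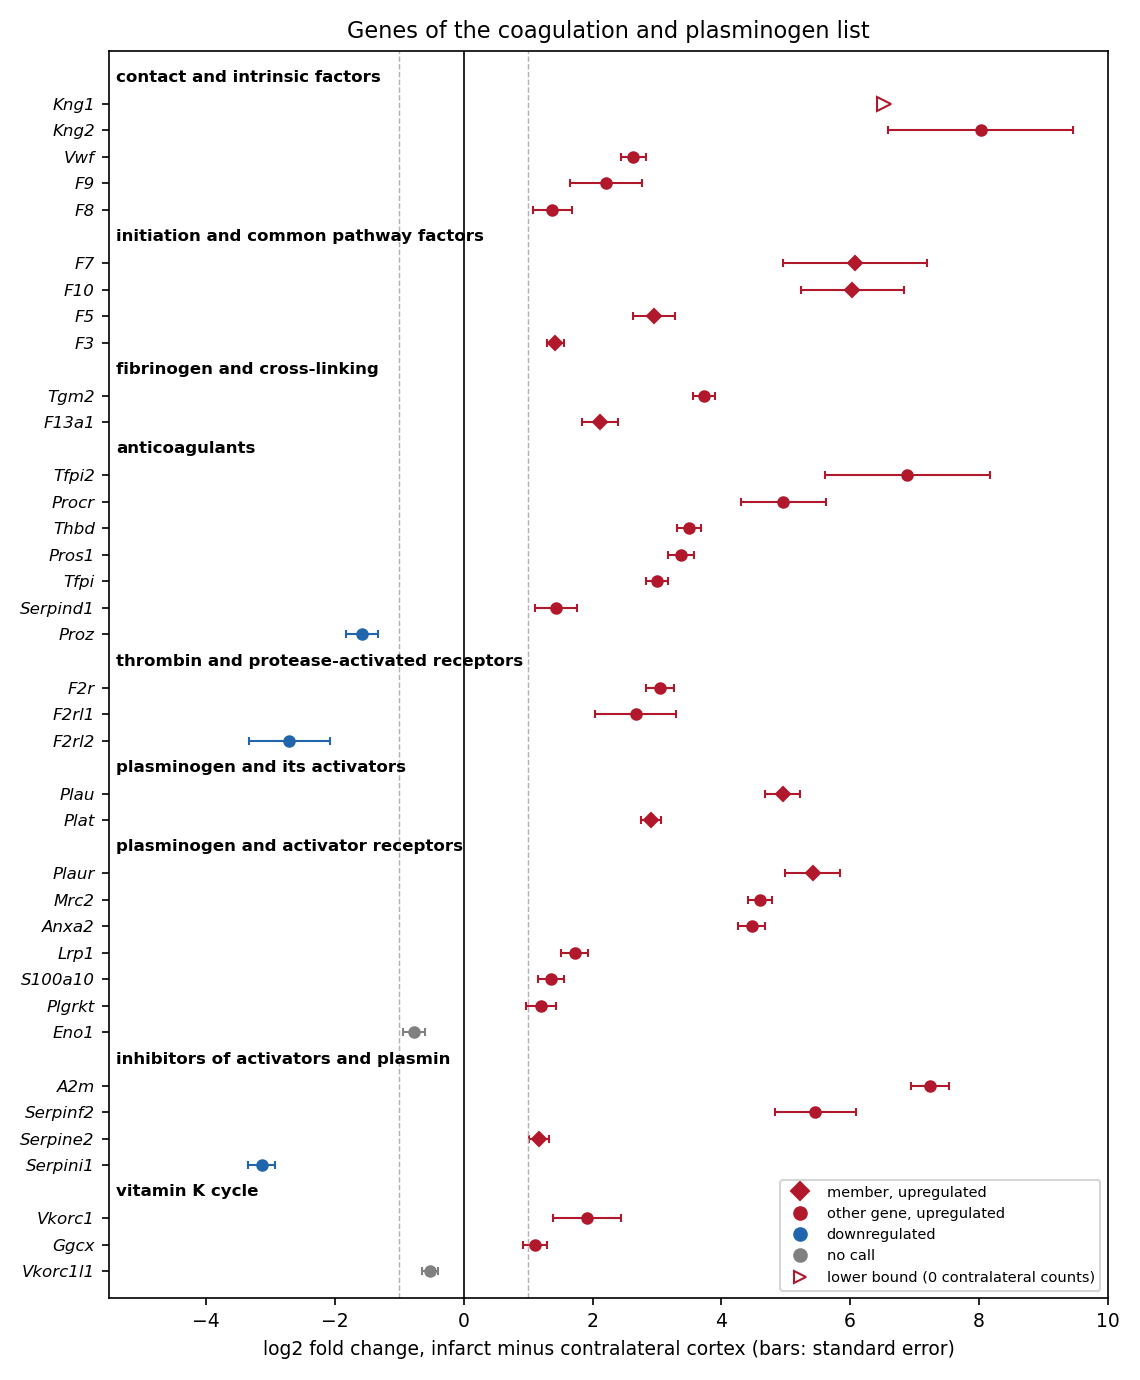
Log2 fold change (infarct minus contralateral cortex) of genes of the list by role, with bars for the standard error and dashed lines at -1 and 1; diamonds mark the 9 genes and the open triangle is the lower bound of *Kng1*. Most of the genes drawn, which are not all of those tested, lie to the right as upregulated and 3 to the left as downregulated, and the fitted sizes of *F7*, *F10*, *Kng2*, and *Tfpi2* rest on at most 3 contralateral counts.

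Among anticoagulant genes 6 of 7 tested were upregulated, of which *Tfpi2* and *Procr* passed the filter only through infarcts. *Thbd*, the gene of thrombomodulin, which turns thrombin toward activating protein C, had 585, 693 and 429 CPM in infarcts against 48.9, 51.1 and 50.3 contralaterally. Its log2 fold change was 3.50 (SE 0.19; edgeR, BH-adjusted *p* = 6.64e-07). *Pros1* (protein S) had 477, 333 and 315 CPM in infarcts against 31.0, 41.9 and 35.4 contralaterally, and *Tfpi* had 50.4, 48.6 and 40.3 against 5.64, 5.53 and 6.18 CPM. Neither gene overlapped between regions, with log2 fold changes of 3.38 and 3.01. *Procr*, the gene of the endothelial protein C receptor, had 66, 41 and 42 counts in infarcts against 2, 2 and 1 contralaterally. Its log2 fold change was 4.96, or 6.54 with counts thinned to the smallest library. *Tfpi2* was 140.5-fold higher in infarcts by summed counts, with an exact 95% counting interval of 38.5 to 1166.

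Of the contact and intrinsic pathway 5 genes were tested and upregulated, but *F9*, *Kng1*, and *Kng2* passed the filter only through infarcts and had to be higher there. *F11*, with 2, 4 and 2 counts in infarcts against 2, 3 and 3 contralaterally, and *F12*, with 0, 1 and 1 against 9, 1 and 2, were too low to be tested and showed no rise. *Vwf*, the gene of the carrier of factor VIII and of platelet adhesion, rose from 40.1 ± 2.80 to 249 ± 65.5 CPM (SD, n = 3), a log2 fold change of 2.64. *Kng1* had 62, 135 and 52 counts in infarcts and 0 in every contralateral cortex, and with a floor of 3 counts over the contralateral libraries it was at least 92.2-fold higher. Its near-identical paralog *Kng2* had 87, 146 and 97 counts in infarcts against 0, 0 and 1 contralaterally, a ratio of 366 (exact 95% counting interval 65.3 to 14519), and the division of reads between both genes is uncertain. *F8* had a log2 fold change of 1.38, which was 0.98 and no longer called without infarct 1, and that of *F9* was 2.21, or 2.96 without contralateral cortex 3. Of the thrombin and protease-activated receptors, *F2r* rose from 4.85 ± 0.607 to 39.8 ± 9.62 CPM (SD, n = 3). *F2rl1*, which passed the filter only through infarcts, had a log2 fold change of 2.67, or 2.01 without infarct 1. *F2rl2*, with 8, 3 and 1 counts in infarcts against 42, 31 and 19 contralaterally, fell by 2.71 on the log2 scale, or by 3.72 without infarct 1.

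Among receptors for plasminogen and its activators 6 of 7 were upregulated, including *Plaur*, which passed the filter only through infarcts. *Anxa2*, whose product binds plasminogen and tissue-type activator together with that of *S100a10*, had 275, 189 and 207 CPM in infarcts against 9.66, 7.94 and 12.7 contralaterally. *Anxa2* had a log2 fold change of 4.47, with 2.63% of its exon bases shared with the other strand, and *S100a10* one of 1.36. *Mrc2*, whose product joins urokinase and its receptor at the cell surface, had a log2 fold change of 4.60, and *Lrp1*, whose product clears complexes of activators with serpins, one of 1.72. *Eno1*, which has near-identical copies elsewhere in the genome, had a log2 fold change of -0.77. In the vitamin K cycle, on which several of these factors depend, *Ggcx* had a log2 fold change of 1.11, which was 0.97 and no longer called without infarct 1. *Vkorc1* shares 47.7% of its exon bases with a gene on the same strand, and its log2 fold change of 1.92 is uncertain. *Vkorc1* also passed the filter only through infarcts.

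The genes of the plasma proteins at the end of both pathways were barely counted. Plasminogen (*Plg*) and prothrombin (*F2*) each had 1 count in infarct 1 and 0 in the other libraries. For the fibrinogen chains, *Fga* had 0 counts in every library, *Fgg* had 1 count in contralateral cortex 1 and *Fgb* had 10 counts in infarct 2 and 0 in the others. *Proc*, the gene of protein C, had 0 counts throughout, and *Serpinc1*, the gene of antithrombin, had at most 5 in a library. *Serpinc1* and *Plg* share 34.4% and 11.3% of their exon bases with genes of the opposite strand. These genes are expressed mainly in liver, and differences between regions were not detectable at this depth. The hepatocyte markers summed to 3.74, 1.47 and 2.25 CPM in infarcts against 0, 0.0651 and 0.0923 contralaterally, with *Hp* the most abundant in infarcts, *Alb* and *Serpina1a* at 0 in all 6 libraries and 1 of 6 genes tested and upregulated. *F7*, *F10*, *F5*, *Kng1*, and *Serpinf2*, whose proteins also reach plasma largely from liver, were counted in every infarct. So were the hepatocyte markers *Hp*, with 41, 14 and 26 counts in infarcts, and *Ahsg*, with 4, 6 and 2. The source of these transcripts was not tested.

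Markers of the vessel wall and of the scar changed alongside. The endothelial markers summed to 505, 406 and 354 CPM in infarcts against 232, 255 and 252 contralaterally, with *Cdh5* the most abundant in infarcts and 3 of 7 upregulated. The pericyte and smooth muscle markers, led by *Rgs5*, summed to 687, 503 and 473 against 225, 204 and 248 CPM, and 5 of 6 were upregulated. The fibroblast and leptomeningeal markers summed to 8060.2, 8680.3 and 6927 CPM in infarcts, led by *Col3a1*, and to 176, 146 and 189 CPM in contralateral cortices, and 6 of 6 were upregulated. B cell and plasma cell markers, with *Jchain* the most abundant in both regions, summed to 2378, 950.5 and 339 CPM in infarcts against 2.35, 3.13 and 6.09 contralaterally, and T cell markers summed to 95.3, 36.1 and 22.9 against 0.627, 0.391 and 0.554 CPM. Erythroid markers, led by *Hbb-bs*, summed to 30.2, 8.08 and 10.4 CPM in infarcts against 4.28, 0.846 and 3.14 contralaterally. Upregulated genes numbered 6 of 6, 5 of 5 and 2 of 2 tested in these last lists. Other lists tested were those of astrocytes (2 of 6 genes upregulated and 1 downregulated), oligodendrocytes (2 of 5 upregulated), microglia (3 of 6), peritoneal macrophages (3 of 4, with 1 downregulated), neutrophils (2 of 2), mast cells (1 of 2) and choroid plexus (2 of 4). The part of any of these cell types in the results was not tested.

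For each of the 9 genes, the protein-coding genes with the most similar pattern were sought by the root mean square difference between log2 CPM profiles centered on their means over the 6 libraries, among 14182 genes. A prior count of 2 was added for these profiles, which shrinks differences at low counts, so genes with few contralateral counts look closer than their fitted changes. *Tfpi* was closest to *Plat* (0.07 on the log2 scale), followed by *Skap2* and *Plod1*. *Plau* was closest to *Tlr2* (0.11), *Plaur* to *Cd180*, *Trem2*, and *Ctsh* (0.09 each), *F10* to *Cd109* (0.14), and *F13a1* to *Edem2* (0.07). The fitted log2 fold changes were 4.85 for *Cd109* and 4.85, 4.74 and 4.73 for *Cd180*, *Trem2*, and *Ctsh*, below those of *F10* and *Plaur*. *F3* was closest to *Olfr558* (0.04) and *Serpine2* to *Cd276* (0.04). The closest genes to *F5* and *F7* were *B3gnt7* and *Spag16*, at 0.12 and 0.34, and *F7* thus had the least similar neighbor of the 9.

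Promoter windows from RefSeq (GRCm38.p6, 250 bases before to 50 after each start) were available for 7 of the 9 genes, *F3*, *F5*, *F7*, *F10*, *F13a1*, *Plaur*, and *Serpine2*. They were searched on both strands for 5 motifs, AP-1 (TGANTCA), the GC box (GGGCGG), an ETS core (GAGGAA), the TATA box (TATAAA), and NF-kB (GGACTTTCC), chosen after a first scan of the windows. Of all 32851 windows, 7.81% held the AP-1 motif, 35.7% the GC box, 28.3% the ETS core, 13.6% the TATA box and 0.344% the NF-kB motif. The *F3* window held 2 AP-1 motifs, 3 GC boxes and 1 match to TATAAA, which lies after the start. That of *Plaur* held 1 AP-1 motif, 3 GC boxes and 2 ETS cores, that of *Serpine2* 6 GC boxes and that of *F5* 1 GC box. *F7* had 1 ETS core, and *F10* had 0 of all 5 motifs. *F13a1* has a pair of windows, with 1 and 2 ETS cores and 1 NF-kB motif in the former, and neither held an AP-1 motif or a GC box. The ETS core of the former window and 1 of those of the latter also lie after the start. Shown 5′ to 3′ are the 170 bases before the start of the members with the highest contralateral expression per kb and of those nearly uncounted there, with AP-1 motifs and GC boxes of either strand in capitals. They lie at chr3:121723367-121723536 (plus strand), chr1:79858666-79858835 (minus strand), chr7:24462313-24462482, chr8:13025864-13026033 and chr8:13037138-13037307 (all plus strand). The *Serpine2* stretch lies inside the gene span given above, since the RefSeq start used differs from the outermost start of that span. A match describes the letters of the window and no more.
F3: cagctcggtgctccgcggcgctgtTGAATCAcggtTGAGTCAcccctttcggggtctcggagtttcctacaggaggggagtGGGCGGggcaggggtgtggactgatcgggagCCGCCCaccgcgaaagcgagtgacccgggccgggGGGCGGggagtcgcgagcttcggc
Serpine2: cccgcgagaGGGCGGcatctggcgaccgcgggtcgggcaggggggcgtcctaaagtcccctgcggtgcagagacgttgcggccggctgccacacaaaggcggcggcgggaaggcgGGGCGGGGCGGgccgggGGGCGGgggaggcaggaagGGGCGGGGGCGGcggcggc
Plaur: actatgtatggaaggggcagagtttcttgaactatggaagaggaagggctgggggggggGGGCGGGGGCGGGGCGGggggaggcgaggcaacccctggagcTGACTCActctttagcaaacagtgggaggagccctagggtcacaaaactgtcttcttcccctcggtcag
F7: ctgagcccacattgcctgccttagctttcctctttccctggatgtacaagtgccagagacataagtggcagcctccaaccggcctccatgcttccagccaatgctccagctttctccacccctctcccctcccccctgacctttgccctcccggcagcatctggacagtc
F10: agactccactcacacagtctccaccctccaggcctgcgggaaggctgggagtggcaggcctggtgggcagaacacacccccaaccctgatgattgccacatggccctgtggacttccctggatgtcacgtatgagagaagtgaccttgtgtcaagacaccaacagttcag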

How the data were processed

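RNA-Seq libraries of 3 infarcts and 3 contralateral cortices, 1 per tissue sample, were used. Per the labels and the study's methods, a stranded mRNA kit was used for the libraries and reads were paired. The submitters' processing notes name bcl2fastq 2.19, Trimmomatic 0.32, STAR 2.5.2b, HTSeq and the genome build GRCm38. The deposited values are whole counts of reads per Ensembl gene, made by the authors without normalization. For HTSeq, neither version nor annotation nor strandedness is given in the sources used here. Each table ends in 5 tallies without a gene, which entered neither library sizes nor tests, and 65.7% to 73.4% of tallied reads fell on genes.

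Identifiers were matched to GENCODE M21 for symbols and positions, and 849 of 46078 were unmatched and kept in the tests. Tests were run with edgeR 4.0.16 under R 4.3.3, by filterByExpr at default settings, TMM scaling and robust quasi-likelihood fits (glmQLFit and glmQLFTest) with region as the only term. *p* values were adjusted by the Benjamini-Hochberg method over 15554 genes. Calls of up- or downregulation required both an adjusted *p* below 0.05 and a log2 fold change above 1 or below -1. Replicate libraries differed by more than sampling noise. The procedure was tested on simulated data. Where a region had 0 counts, the fold was set against 3 counts over the region, and where it had 1 to 3, the ratio of summed counts was given with an exact 95% interval. Ratios between genes were tested by exact permutation over libraries. Tables and plots were made with Python 3.11.15, pandas 2.3.3, SciPy 1.17.1 and matplotlib 3.10.9.

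The members, the list of 54 pathway genes and 18 lists of cell type markers were chosen with earlier results of these data known. Named genes are the members, the pathway and marker genes, genes next to a member, and the 3 tested protein-coding genes with the most similar profile to each member. *Klkb1* of the pathway list and *Tf* of the hepatocyte list were not analysed here.

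The alternatives were DESeq2 1.42.0, voom of limma 3.58.1, scaling by RLE, upper quartile or library totals, omission of the count filter, a filter of 10 or more counts per library throughout, calls by adjusted *p* alone, glmTreat at a fold change of 2, the replicate number as a block, counts thinned to the smallest library, each library left out in turn and, for ratios, raw counts. The length of the principal transcript was added after the data were seen.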

Additional observations from a re-analysis of the deposited data

How the results depend on the processing

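Each of the 9 genes remained upregulated with every test, scaling, threshold and left-out library that gave it a value, except *Serpine2*, whose log2 fold change of 1.17 was no longer called when glmTreat tested it against a fold change of 2. When 10 or more counts were demanded of all libraries, 6 of the 9 genes were tested and 21 genes of the pathway list were upregulated in place of 33, since fewer genes were tested. Without a fold change threshold, 5 genes of that list were downregulated in place of 3, the additional ones being *Eno1* and *Vkorc1l1*. Under the other settings the list had 28 to 34 upregulated genes. No direction reversed. Among single genes of the list outside the 9, the call was lost in 6 cases, with *F8* and *Ggcx* in both glmTreat and without infarct 1 and *Serpind1* and *Plgrkt* in glmTreat. With each library left out in turn, log2 fold changes ranged from 1.04 to 1.28 for *Serpine2*, 1.37 to 1.51 for *F3*, 1.71 to 2.31 for *F13a1*, 2.83 to 3.00 for *Plat*, 4.67 to 5.16 for *Plau*, 2.82 to 3.18 for *F5*, 5.19 to 5.75 for *Plaur* and 5.49 to 6.66 for *F10*. For *F7* they ranged from 5.37 to 6.33, apart from 9.16 without contralateral cortex 2, a fit with no contralateral count left. Over the same omissions the ratio of *Plau* to *Plat* differed between regions by 1.79 to 2.31 on the log2 scale. Samples with the same number did not deviate together (correlations of -0.19, 0.10 and 0.0011), so that numbers were not used for pairing, and with the replicate number as a block 3945 genes were upregulated and 3222 downregulated, including all 9. The contralateral counts of *F7*, *F10*, *Kng1*, *Kng2*, *Tfpi2*, and *Procr* were too few to fix the size of their change. *Serpinf2*, with 1, 3 and 3 contralateral counts, ranged from 4.92 to 5.86 on the log2 scale with libraries left out. *Plaur* also rested on few contralateral counts (5, 2 and 2).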
